A study of Mus musculus with 6 samples.

Results

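Osteoblast-lineage cells were chosen by their own transcript counts from the injured rotator cuff enthesis, the junction where tendon inserts into bone, as the barcodes that carried transcripts of bone matrix genes together with those of osteoblast regulators. A barcode is the tag that marks the contents of 1 droplet, and a unique molecular identifier (UMI) marks 1 captured RNA molecule. A member had at least 2000 UMIs, at least 200 genes and at most 10% mitochondrial UMIs. Collagen transcripts Col1a1, Col1a2 and Col3a1 made up at least 0.5% of its UMIs and the neutrophil transcripts S100a8 and S100a9 under 1%, with no UMI of Ptprc (leukocytes) or Cdh5 (endothelium). It held at least 5 UMIs of Bglap, Bglap2 and Ibsp in sum and at least 1 of Sp7, Runx2 and Alpl, with fewer than 5 UMIs of Col2a1 (cartilage), no UMI of Tnmd (tendon) and fewer than 2 of Mki67 and Top2a (division). This gave 81 members among 64599 kept barcodes, which is 0.125%, and among 13415 mesenchymal barcodes, those that met the same limits on collagen, S100a8, S100a9, Ptprc and Cdh5, which is 0.604%.

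Osteoblasts are the cells that build bone. They arise from mesenchymal progenitors under the transcription factors Runx2 and Sp7, secrete a matrix of type I collagen, and mineralize it with the help of tissue-nonspecific alkaline phosphatase, the product of Alpl. Ibsp encodes bone sialoprotein, an acidic protein of mineralizing matrix that hypertrophic chondrocytes also make, whereas osteocalcin, the product of Bglap and Bglap2, is a late product of mature osteoblasts. Osteoblasts that become buried in bone turn into osteocytes, which express Dmp1, Phex, Mepe and Sost. At an enthesis this lineage lies on the bone side of the mineralized fibrocartilage.

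All mice had a rotator cuff tear and repair and were sampled 7 days post injury, with surgery at 12 to 14 weeks of age. Wild-type C57BL/6 mice gave 3 libraries, and mice with a whole-body deletion of Nlrp3 (Nlrp3-/-), the sensor of the NLRP3 inflammasome that activates caspase-1 and interleukin-1β, gave 3 libraries, with tissue pooled before dissociation. The genotype labels of Nlrp3-/- 2 and 3 name Nlrp4 and Nlrp5 knockouts, in conflict with their titles, which were followed here. Nlrp3 was at 0 CPM in the other mesenchymal barcodes of all 3 Nlrp3-/- libraries. The comparison asks whether osteoblast-lineage cells of the injured enthesis differ without the inflammasome. Xist, the RNA that silences an X chromosome in females, had 0 UMIs in the members of all 3 wild-type libraries and 36, 151 and 41 UMIs in those of the 3 Nlrp3-/- libraries, so genotype and sex cannot be told apart. Libraries held between 97042713 and 134901999 UMIs in all, and 8352 to 12440 kept barcodes. Labels do not say which libraries share animals or days, so p-values measure only the spread between these libraries.

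Members were few and unevenly spread. The wild-type libraries held 17, 21 and 8, and the Nlrp3-/- libraries 8, 21 and 6. Their depth per barcode ran from 2120 to 27347 UMIs with a median of 10663, and in all they held 836521 UMIs. Library medians were 9103, 12277 and 12864 UMIs in wild-type and 6817, 7839 and 8084 in Nlrp3-/-. At this size 1 UMI in the summed members stood for 4.44 to 17.7 CPM, the summed UMIs of a gene scaled to a total of 1e+06 UMIs. No barcode sequence was a member in more than 1 library, although 436 of 64161 kept sequences occurred in several libraries.

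**Figure D1:**
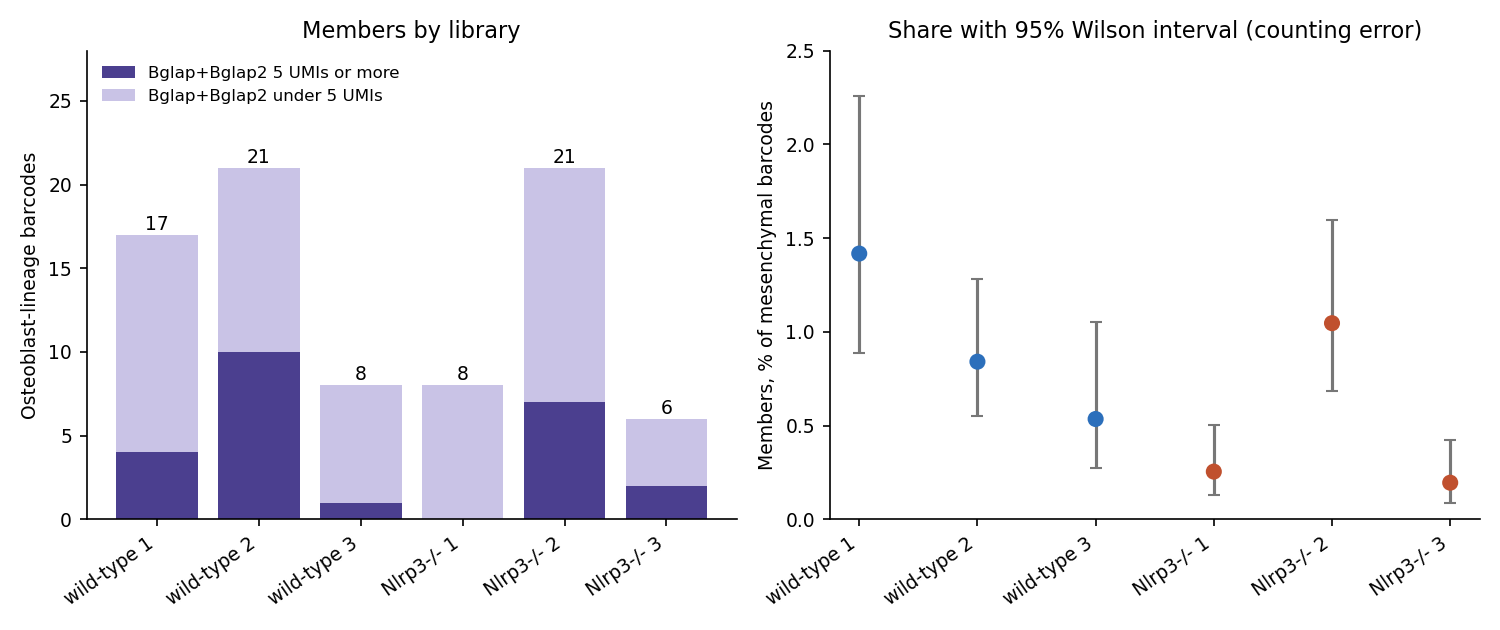
Left, number of osteoblast-lineage barcodes (y axis) in each of 6 libraries (x axis), split by osteocalcin count; right, members as a percent of mesenchymal barcodes with 95% Wilson intervals. Wild-type 2 and Nlrp3-/- 2 held 21 members each, and Nlrp3-/- 1 held no member with 5 or more osteocalcin UMIs.

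The genes of the rule describe how the members were chosen. Ibsp was present in all 81, with 1 to 654 UMIs and a median of 27, and its summed level was 10189, 4874 and 3280 CPM in wild-type 1 to 3 and 2123, 4336 and 3583 CPM in Nlrp3-/- 1 to 3. Bglap reached 3400, 1275 and 125 CPM in wild-type and 0, 5398 and 1394 CPM in Nlrp3-/-, and Bglap2 reached 1210, 609 and 41.6 CPM in wild-type and 0, 2225 and 512 CPM in Nlrp3-/-. Ibsp alone therefore brought 79 members over the limit of 5 UMIs, osteocalcin alone 24, and 22 members passed it with either. Bglap (chromosome 3, 88383501 to 88384464, minus strand) and Bglap2 (chromosome 3, 88377736 to 88378699, minus strand, GRCm38) are neighbours whose annotated transcripts were 98.9% identical over 439 aligned bases, so how their reads divide between them is uncertain. Both are read here as 1 osteocalcin sum of 2008 and 811 UMIs. Among the regulators, Runx2 had a UMI in 63 members, Alpl in 57 and Sp7 in 51.

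The limit on Bglap, Bglap2 and Ibsp cut into a continuous range, whereas few barcodes lay near the limit on Col2a1. Of 474 mesenchymal barcodes with at least 5 UMIs of Bglap, Bglap2 and Ibsp, 447 also had a regulator UMI, and 330 of those held at least 5 UMIs of Col2a1. Col2a1 by itself kept out 225 barcodes, 112 of them in Nlrp3-/- 2, Tnmd by itself 14 and the division genes by themselves 16. In those 225 barcodes Ibsp stood at 14216 CPM, Alpl at 1215 CPM and Col10a1, a collagen of hypertrophic cartilage, at 6207 CPM, while the members held 3 UMIs of Col10a1 in all. Just outside the limit lay 8 barcodes with 3 and 8 with 4 UMIs of Bglap, Bglap2 and Ibsp, and just inside it 3 with 5, 2 with 6 and 5 with 7. For Col2a1, 2 members held 3 and 4 held 4 UMIs, and 4 barcodes with 5 and 1 with 6 were left out. The 225 barcodes left out for Col2a1 held 199391 UMIs of it in all.

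Background was read in neutrophil barcodes, which were taken to lack these transcripts. Bglap had a UMI in 0% to 0.822% of neutrophil barcodes and Ibsp in 0.435% to 6.33%, at median depths of 3480 to 5042 UMIs. The limit of 5 UMIs of Bglap, Bglap2 and Ibsp was reached by 6 of 3040, 6 of 2107 and 5 of 2161 neutrophil barcodes in wild-type and by 0 of 1150, 5 of 2591 and 0 of 2139 in Nlrp3-/-. Runx2, of which 1 UMI is enough for the rule, had a UMI in 8.13% to 11.9% of neutrophil barcodes and in 25.5% to 43.6% of other mesenchymal barcodes, and 16 members held just 1 regulator UMI. In Nlrp3-/- 1, neutrophil barcodes held Runx2 at 27.7 CPM and the pool of barcodes with at most 100 UMIs at 25.9 CPM. Ibsp there was at 1.48 and 99.3 CPM. In wild-type 1, Runx2 was at 15.1 and 18.4 CPM and Ibsp at 158 and 330 CPM. Whether the Runx2 UMIs of neutrophil barcodes are free RNA was not tested. Spp1 is also a poor guide, since 33.6% to 53.2% of neutrophil barcodes held a UMI of it.

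The members were a mixture when divided by osteocalcin, which the rule used, and set beside markers that it did not use. Of the 81, 24 held at least 5 osteocalcin UMIs, 12 held 1 to 4 and 45 held none. Those 24 lay in wild-type 1 to 3 as 4, 10 and 1 and in Nlrp3-/- 1 to 3 as 0, 7 and 2. Ifitm5, a membrane protein made almost solely by osteoblasts, had a UMI in 17 of these 24 and in 2 of the other 57, and in 1.22% to 3.51% of neutrophil barcodes. Smpd3, a sphingomyelinase needed for mineralization, had a UMI in 17 of 24 and 9 of 57. Phospho1, a phosphatase of matrix vesicles, was at 0 in all members. Smpd3 does not set these barcodes apart from the barcodes left out for Col2a1, which held it at 1114 CPM against 632 CPM in the osteocalcin-rich members over all libraries. Ifitm5 was at 33.5 and 571 CPM, but at 404 and 705 CPM in wild-type 2 and at 127 and 0 CPM in Nlrp3-/- 3. The remaining 57 are described as members low in osteocalcin. Each held at least 5 UMIs of Ibsp, which the rule used, and markers outside the rule differed among them, as given below.

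**Figure D2:**
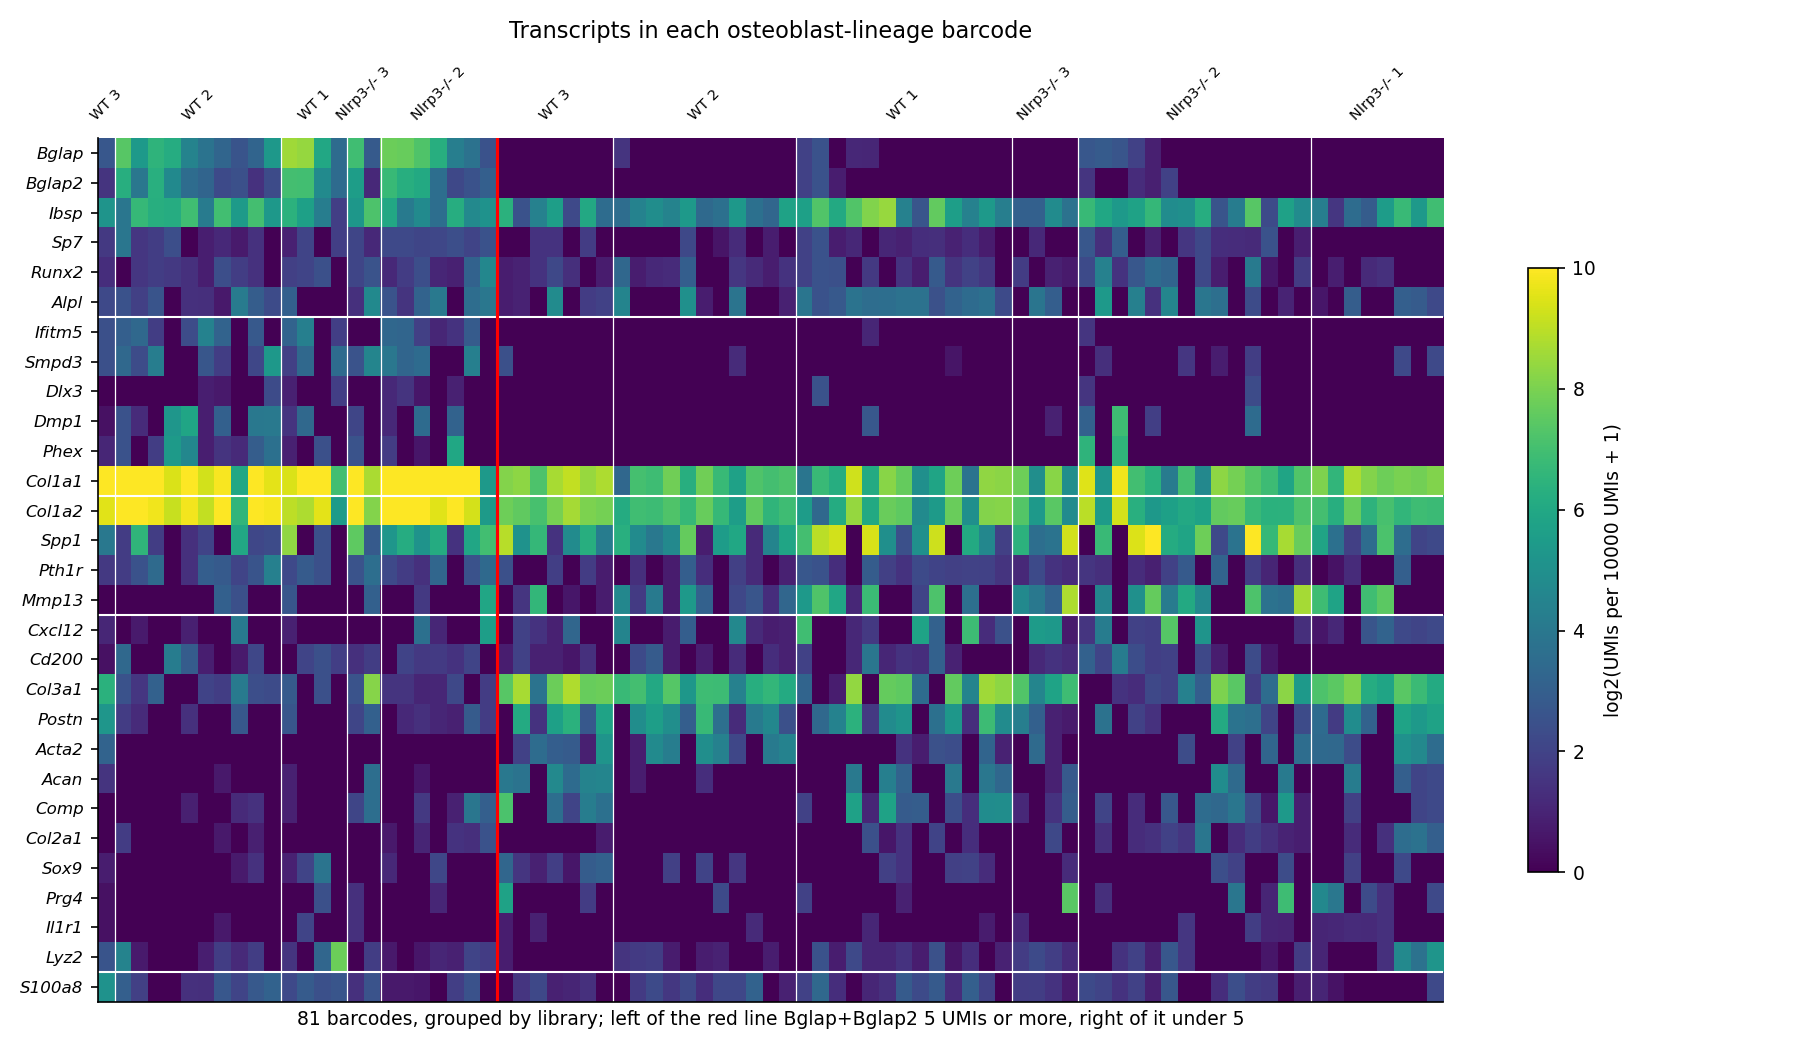
Heat map of 29 genes (rows) in 81 members (columns), coloured by depth-scaled UMIs on a log2 scale, with osteocalcin-rich members left of the red line. Ifitm5, Smpd3, Dmp1 and Phex lie mostly to the left of the line, Col1a1 is brighter there, and Col3a1, Postn, Mmp13 and Acan lie mostly to the right.

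The osteocalcin-rich barcodes made far more type I collagen. Summed over libraries, Col1a1 stood at 110491 CPM in them and at 21190 CPM in the other members, and Col1a2 at 84593 and 15424 CPM. Col3a1, the collagen of loose connective tissue, ran the other way in sum, at 2167 and 13729 CPM, but not in Nlrp3-/- 3, where it was at 16641 and 8958 CPM. There 232 of the 235 Col3a1 UMIs of the osteocalcin-rich members came from 1 barcode. In 22 of the 24 osteocalcin-rich members Col1a1 exceeded Col3a1 at least 10-fold, as it did in 12 of the other 57. Both collagens were used by the rule for all members, and the split itself was made on osteocalcin, so these are descriptions with no test.

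Other genes split the same way within each of the 3 libraries that held at least 4 osteocalcin-rich members. In wild-type 1, 3 of these 4 members were among the highest Scrublet scores, a measure of likely doublets, and the fourth held 82 UMIs of the myeloid gene Lyz2. Without high scores the osteocyte share of that library went from 23.5% to 0%. In Nlrp3-/- 3, 4 of 6 members were among the highest scores, the 2 osteocalcin-rich ones included. Without them its osteocyte share went from 16.7% to 0% of the 2 members left. Ifitm5 (chromosome 7, 140948958 to 140950291, minus strand) was at 787 CPM in the osteocalcin-rich and 7.15 CPM in the other members of wild-type 1, at 705 and 0 CPM in wild-type 2, and at 497 and 8.48 CPM in Nlrp3-/- 2. Col11a2, a fibrillar collagen chain, was at 3247 and 50.02 CPM, 2829 and 7.95 CPM, and 1952 and 110 CPM in the same order. The barcodes left out for Col2a1 held as much of it, 2621 CPM against 2323 CPM over all osteocalcin-rich members. Car3, a carbonic anhydrase, Col22a1, a collagen of tissue junctions, Cpz, a carboxypeptidase that binds Wnt proteins, and Cadm1, an adhesion molecule, were also higher in the osteocalcin-rich members of each of these libraries. Bglap3, the third gene of the osteocalcin cluster, had 35 UMIs in osteocalcin-rich members and 0 in the others. Ibsp and Alpl differed less. Summed over all libraries, Alpl was at 583 CPM in the osteocalcin-rich and 543 CPM in the other members, with 394 and 965 CPM in wild-type 1 and 1558 and 447 CPM in Nlrp3-/- 3. Of the 22 Alpl UMIs behind the 1558 CPM, 21 came from 1 barcode. Ibsp, summed over all libraries, was at 6067 and 4849 CPM, and in wild-type 1 and Nlrp3-/- 2 Ibsp was higher in the other members.

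**Figure D3:**
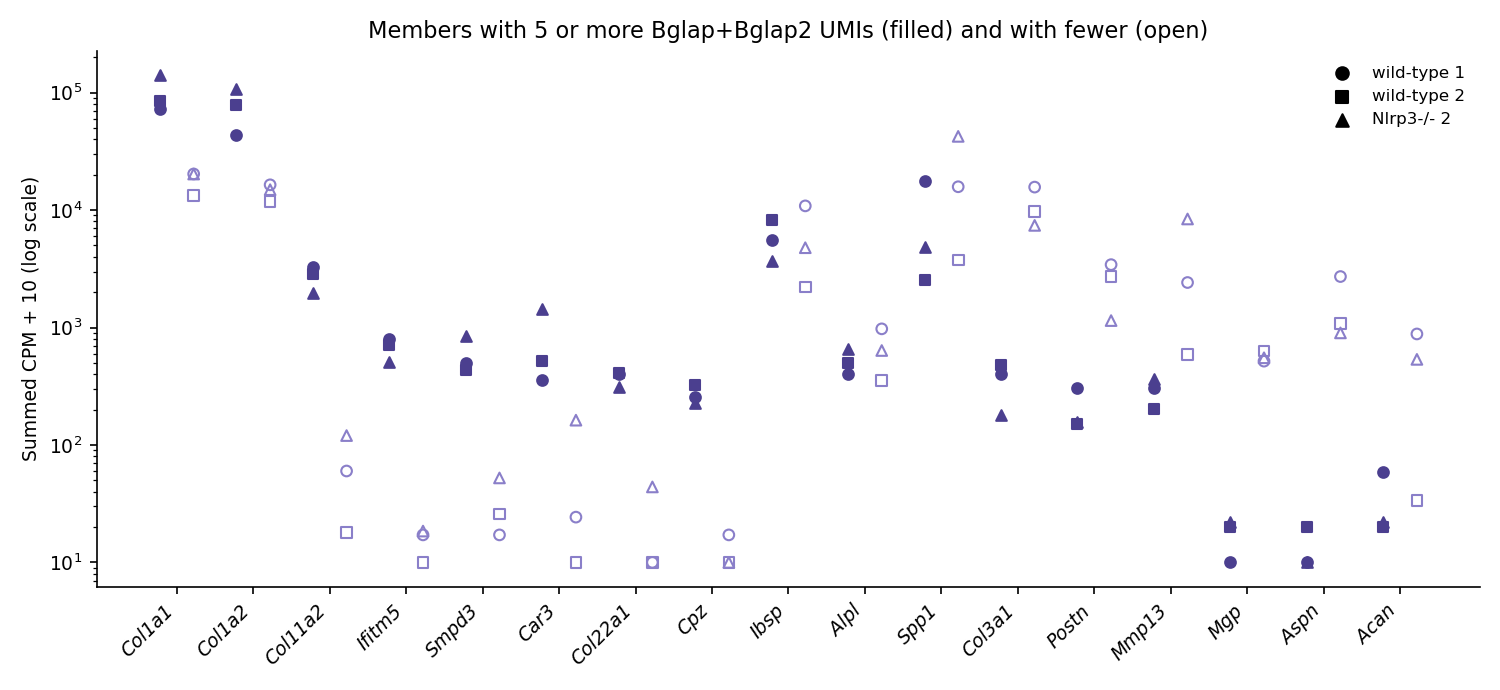
Summed CPM plus 10 on a log axis (y) of 17 genes (x) in osteocalcin-rich members (filled) and other members (open) of wild-type 1, wild-type 2 and Nlrp3-/- 2. Ifitm5, Col11a2, Smpd3 and Cpz are higher in the filled points of all 3 libraries, and Mgp, Aspn, Mmp13, Postn and Col3a1 in the open points.

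Most members with an osteocyte transcript were osteocalcin-rich, but the level did not follow in each library. In Nlrp3-/- 2 Dmp1 was at 364 CPM in osteocalcin-rich and 695 CPM in the other members, and Phex at 909 and 856 CPM. At least 1 UMI of Dmp1, Phex, Mepe or Sost was found in 24 members, 18 of them osteocalcin-rich, and at least 10 such UMIs in 8 members, 4 in wild-type 2 and 4 in Nlrp3-/- 2. Dmp1, a phosphoprotein of the osteocyte matrix, had a UMI in 21 members and 254 UMIs in all, of which 72 lay in 1 barcode of wild-type 2 and 67 in 1 barcode of Nlrp3-/- 2. Phex, an endopeptidase that controls phosphate balance, had a UMI in 18 members and 253 UMIs in all. Sost, the Wnt antagonist sclerostin of mature osteocytes, was found in 2 members only, with 21 UMIs in Nlrp3-/- 2 and 4 in wild-type 2. The first of these held 67 Dmp1, 53 Phex and 1 Mepe UMI, the only Mepe UMI of all members, but just 3 osteocalcin UMIs. Fgf23, the phosphate-regulating hormone of osteocytes, was at 0.

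The 57 members low in osteocalcin carried matrix and remodelling transcripts. Mmp13, the collagenase that degrades cartilage and bone collagen, reached 10 UMIs in 26 of them and in 2 of the 24 others, and stood at 4652 CPM against 246 CPM. Spp1, osteopontin, was at 16790 and 4778 CPM, although in wild-type 1 the order was reversed, at 15799 and 17613 CPM, with 357 UMIs of the latter from 1 barcode. Postn, periostin of the periosteum and of tendon, was at 2441 and 583 CPM, though at 541 and 566 CPM in Nlrp3-/- 3 and at 4064 and 3730 CPM in wild-type 3. Mgp, an inhibitor of calcification, had 385 UMIs in these 57 members and 4 in the osteocalcin-rich ones, and Aspn, asporin, 961 and 31. Cartilage matrix was present in part of them, since 16 held at least 10 UMIs of Acan or Comp, all of them low in osteocalcin, 5 in wild-type 1, 6 in wild-type 3, 1 in Nlrp3-/- 1, 3 in Nlrp3-/- 2 and 1 in Nlrp3-/- 3. Wild-type 2 had none of these 16. Cxcl12, the chemokine that marks marrow stroma, reached 10 UMIs in 11 of the 57 and in 3 of the 24 others. Acta2, the actin of myofibroblasts, did so in 14 and 1, and Prg4, lubricin of the synovial lining, in 6 and 0.

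Some transcripts of marrow stroma were found beside the bone genes. Lepr, the leptin receptor, was at 62.4, 44.4 and 8.33 CPM in wild-type members and 0, 69.8 and 53.0 CPM in Nlrp3-/- members, against 1.09 to 3.09 CPM in other mesenchymal barcodes. Kitl, stem cell factor, was at 156, 71.1 and 8.33 CPM and 0, 39.9 and 70.6 CPM. Lepr was thus above the other mesenchymal barcodes in 5 of 6 libraries and at 0 in Nlrp3-/- 1, and so was Kitl, although wild-type 3 held only 1 UMI of each. Adipoq, adiponectin, had a UMI in 5 members, with 20 of its 29 UMIs in wild-type 1. Summed Cxcl12 did not follow, since members held less of it than other mesenchymal barcodes in wild-type 2 (364 and 868 CPM), wild-type 3 (216 and 317 CPM) and Nlrp3-/- 1 (216 and 368 CPM). It was widespread in those barcodes, with a UMI in 49.3% to 86.8% of them. By barcode it did follow in wild-type 1, where the 3 members with at least 10 Cxcl12 UMIs held 44, 73 and 80. They held 4, 2 and 2 UMIs of Lepr and 8, 5 and 12 of Kitl. The wild-type 3 member with 17 Cxcl12 UMIs held 0 of either. The whole list summed lower in members of wild-type 2 (702 and 1090 CPM) and wild-type 3 (325 and 527 CPM).

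Nlrp3-/- 1 stood apart from the other libraries. Its 8 members held no UMI of Bglap, Bglap2, Sp7, Dmp1 or Ifitm5, which for 8 barcodes of 2756 to 25278 UMIs allows up to 37.5% of barcodes with a UMI and sets no limit on expression. Only 3 held Runx2. Osteoblast transcription factors summed to 460 CPM in its members and 487 CPM in its other mesenchymal barcodes, whereas members were higher in each other library. Of its 73966 member UMIs, 18711 and 25278 lay in 2 barcodes. These held 46 and 37 UMIs of Prg4 and 17 and 11 of Tnfsf11, with 0 of osteocalcin. For this library the name osteoblast-lineage is that of the rule and is not borne out by these markers. Some acute-phase and inflammatory transcripts were high in this library: Saa3, serum amyloid A3, was at 4881 CPM against at most 16.7 CPM in each other library, Il6 at 825 CPM against at most 9.98 CPM, and Cxcl1 at 2001 CPM against at most 131 CPM. Cxcl2 did not follow, at 108 CPM against 241 CPM in wild-type 3. Saa3 had UMIs in 2 of the 8 barcodes and Il6 in 4. Other mesenchymal barcodes of the same library held Saa3 at 60.3 CPM, the lowest level of the 6 libraries. Log2 CPM of its members correlated with those of the other libraries at 0.717 to 0.755 over 2034 genes, whereas the remaining pairs reached 0.771 to 0.887; genes are not independent replicates, and the libraries with few members carry more counting noise.

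Members were placed beside the other mesenchymal barcodes of the same library, which include those left out for Col2a1. Because the members were chosen in these cells, this comparison is a description with no test. Of 5908 genes that the rule did not use and that averaged at least 20 CPM in members, 8 (0.135%) were at least 2-fold higher in each of the 6 libraries and 8 (0.135%) at least 2-fold lower, and the median log2 ratio over these genes was -0.04. The count was also 8 when the other barcodes were limited to those with no UMI of Bglap, Bglap2 or Ibsp. The limit of 20 CPM was set on members alone. Genes nearly absent from them, such as Pi16 and Dpp4, could therefore not count as lower, and the 2 counts cannot be set against each other. A mean of 20 CPM can also be reached through Nlrp3-/- 1 alone, as for Saa3. The medians of the gene lists below use the same limit.

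Among the 8 higher genes were Wif1, Mmp13, Pdk4, Spp1, Cp, Fap and Cdc42ep3. Wif1, a secreted Wnt inhibitor, was at 175, 262 and 108 CPM in wild-type members and 67.6, 753 and 547 CPM in Nlrp3-/- members, and at 2.13 to 30.01 CPM in the other barcodes. It had a UMI in 39 of the 81. Mmp13 was at 2140, 409 and 949 CPM and at 7558, 5084 and 12197 CPM, against 24.8 to 326 CPM. In wild-type 3, 110 of its 114 UMIs came from 1 barcode, and in Nlrp3-/- 3 643 of 691 came from 1 barcode with a high Scrublet score, so the ratios of these libraries rest on them. Spp1 was at 16029, 3208 and 8425 CPM and at 3245, 26951 and 20723 CPM, against 907 to 2913 CPM. Its level in the pool of barcodes with at most 100 UMIs, a measure of free RNA, was 1094 to 3376 CPM, and in Nlrp3-/- 1 that pool, at 3376 CPM, stood above the members. In Nlrp3-/- 3, 964 of 1174 Spp1 UMIs came from the same barcode as most of its Mmp13. Fap, fibroblast activation protein, was at 231, 298 and 175 CPM and at 176, 419 and 424 CPM, and its lowest log2 ratio over the libraries was 1.06. Cp, ceruloplasmin, had its lowest log2 ratio at 1.08, and Pdk4, a kinase that curbs pyruvate oxidation, at 1.46. In Nlrp3-/- 1 the ratio of Pdk4 rested on 3 UMIs in 2 members and that of Wif1 on 5 UMIs in 2 members. In wild-type 3 Pdk4 had 5 UMIs in 2 members. Not all of these genes were particular to the members. Summed over libraries, the barcodes left out for Col2a1 held Cdc42ep3 at 358 CPM, against 205 and 216 CPM in osteocalcin-rich and other members. Their Spp1, at 5468 CPM, lay between the 4778 and 16790 CPM of these classes. Wif1, Mmp13, Pdk4, Cp and Fap were lower there than in either class.

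The next genes in order of their smallest ratio were Kazald1, Ptprd, Ank, Nrp2, Myo10, Cemip, Tgfb1, Specc1, Cpe, Qsox1, Swap70 and Cdh11, which were higher in members in all 6 libraries without reaching 2-fold in each. Ank, which exports pyrophosphate from cells, had log2 ratios of 0.90 to 1.51, and Tgfb1 had 0.76 to 1.51. Cdh11, the osteoblast cadherin, had 0.49 to 1.78.

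Among the 8 lower genes, Thbs4, a thrombospondin of tendon, was at 49.9, 8.89 and 250 CPM in wild-type members and at 0, 54.9 and 194 CPM in Nlrp3-/- members, against 480 to 1360 CPM in the other barcodes. Dpt, dermatopontin, was at 8.89 to 49.95 CPM against 171 to 343 CPM. Mfap4 and Mfap5, proteins of elastic microfibrils, Angptl1, Svep1, Ptn, pleiotrophin, and Cdkn1c, an inhibitor of the cell cycle, made up the rest. Thbs4 stands on the tenocyte list, of which Tnmd was used by the rule.

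**Figure D4:**
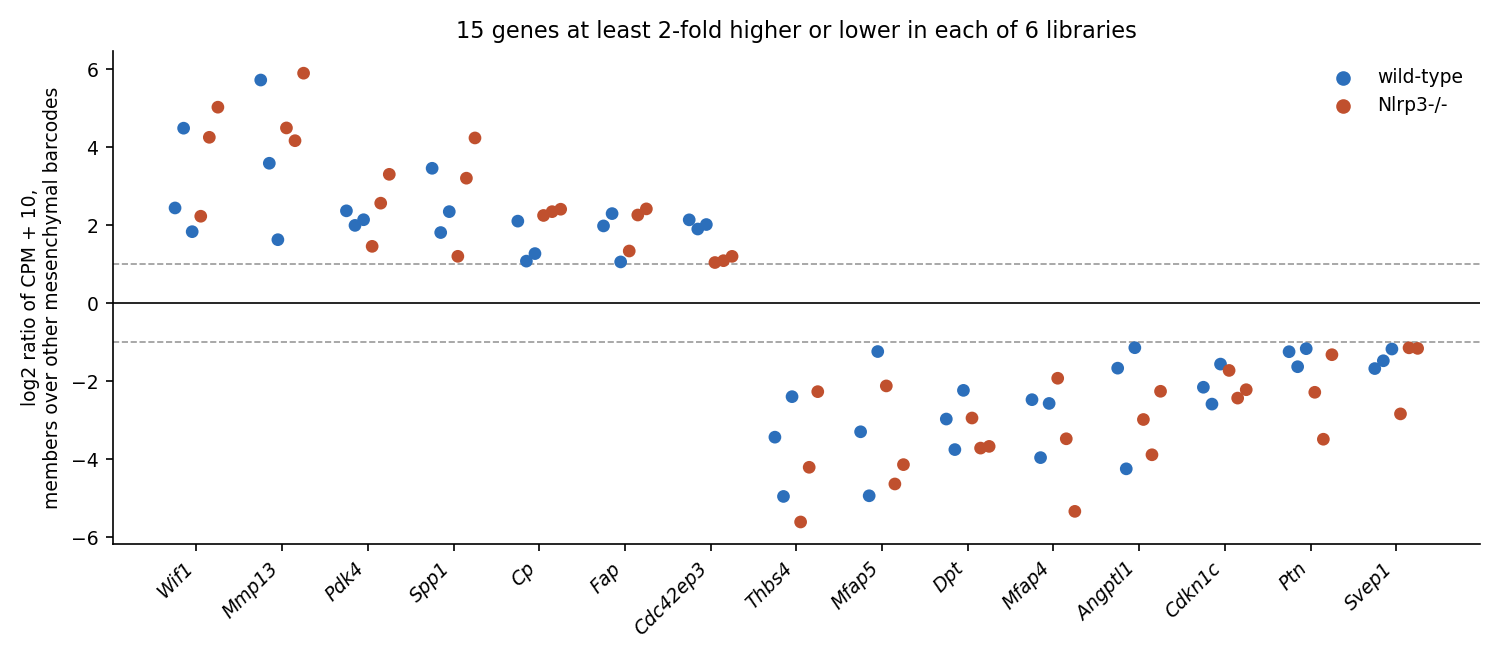
Log2 ratio of CPM plus 10 in members over other mesenchymal barcodes (y) for 15 genes (x), with 1 point for each library coloured by genotype and dashed lines at 2-fold. All 6 points of Wif1, Mmp13, Pdk4, Spp1, Cp, Fap and Cdc42ep3 lie above the upper line, and those of the 8 genes from Thbs4 to Svep1 below the lower line.

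The promoters of Spp1 and Mmp13 are shown as windows with a match to a known short motif bound by Runx2, which was part of the rule. Both genes passed 2-fold over other mesenchymal barcodes in each library, within the limits given above, without being part of the rule. So did Wif1, Pdk4, Cp and Cdc42ep3, whose windows held no match and are not printed, and Fap, for which no window is given. The 250 bases before the RefSeq start of each gene (GRCm38.p6, plus strand) were searched for AACCACA and its reverse complement TGTGGTT, and the match is given in capitals. Spp1 lies at chr5:104434861-104435110 and Mmp13 at chr9:7272264-7272513.
Spp1: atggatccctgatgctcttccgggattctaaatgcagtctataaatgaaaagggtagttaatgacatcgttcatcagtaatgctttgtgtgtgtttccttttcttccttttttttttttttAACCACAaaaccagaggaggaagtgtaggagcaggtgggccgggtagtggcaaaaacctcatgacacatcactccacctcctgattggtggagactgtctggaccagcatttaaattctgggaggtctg
Mmp13: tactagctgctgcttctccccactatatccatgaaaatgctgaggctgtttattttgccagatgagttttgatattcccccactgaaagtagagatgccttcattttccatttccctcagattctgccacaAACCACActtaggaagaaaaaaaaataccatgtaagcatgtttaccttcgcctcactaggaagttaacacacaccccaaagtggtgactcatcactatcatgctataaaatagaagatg
The match began 129 bases before the start of Spp1 and 119 bases before that of Mmp13. Windows of 250 bases with either motif were found for 1373 of 27025 genes, 5.08%. The windows of Bglap, Ibsp, Ifitm5, Phex, Wif1, Pdk4, Cp and Cdc42ep3 held neither string of letters, and 1 of 2 windows of Dmp1 held it. A further RefSeq start of Spp1, with its window at chr5:104435942-104436191, held neither. Dmp1, Ibsp, Mepe and Spp1 lie in 1 cluster of 238 kb on chromosome 5 (104202613 to 104441050, plus strand), and within it the members held 254 UMIs of Dmp1, 4353 of Ibsp, 1 of Mepe and 11119 of Spp1.

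Of 12 osteoblast transcription factors, 10 were not in the rule, 7 of them averaged 20 CPM, and the median log2 ratio of members over other barcodes was 1.12 with no gene at 2-fold in all 6 libraries. Dlx5, a homeodomain factor upstream of Sp7, had a UMI in 29 members and none in Nlrp3-/- 1, and Foxc1, a forkhead factor of skull and marrow stroma, in 38. Among 11 osteoblast markers outside the rule, 9 averaged 20 CPM, the median was 1.70 and Spp1 reached 2-fold in all libraries. Of 12 osteocyte genes 10 averaged 20 CPM, with a median of 1.05.

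Bone matrix proteins and the machinery of collagen were closer to the other mesenchymal barcodes. Of 26 matrix genes, 21 were outside the rule and 20 averaged 20 CPM, with a median log2 ratio of 0.24 and Spp1 as the gene past 2-fold in all libraries. Sparc, osteonectin, was at 15486, 26329 and 19680 CPM in wild-type members and at 12019, 26352 and 11562 CPM in Nlrp3-/- members, against 9678 to 17099 CPM. All 23 genes of collagen folding and crosslinking had UMIs, 22 averaged 20 CPM, and their median was -0.00. Of 18 genes of the secretory pathway and unfolded protein response 17 averaged 20 CPM, with a median of -0.19, and of 13 mineralization genes outside the rule 10 averaged 20 CPM, with a median of -0.06.

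Signalling genes were sparse. Of 28 genes of the Wnt pathway 16 averaged 20 CPM, with a median log2 ratio of 0.10, and Wif1 was past 2-fold in all libraries. Of 31 genes of the BMP and TGF-beta pathway 22 averaged 20 CPM, with a median of 0.40. Bmp4, a ligand that drives osteoblast formation, had 31 UMIs in 17 members, at 18.7, 44.4 and 33.3 CPM in wild-type and 0, 69.8 and 0 CPM in Nlrp3-/-, against 0.682 to 2.32 CPM in other barcodes. Of 21 hormone and growth factor genes 17 averaged 20 CPM, with a median of 0.64. Pth1r, the receptor of parathyroid hormone, had a UMI in 61 members and stood at 287, 275 and 158 CPM in wild-type and 54.1, 264 and 353 CPM in Nlrp3-/-. In Nlrp3-/- 2 the other mesenchymal barcodes held more of it, 413 CPM. The barcodes left out for Col2a1 held Pth1r at 1633 CPM, summed over libraries. Fgfr2 was at 162, 66.6 and 58.3 CPM and at 13.5, 120 and 35.3 CPM. The 10 hedgehog genes, with 4 at 20 CPM, had a median of 0.30, and the 9 of 10 genes of the marrow niche at 20 CPM 0.40. Genes that act on osteoclasts had a median of 0.90 over the 6 of 11 at 20 CPM, with Mmp13 past 2-fold in all libraries. Tnfsf11, RANKL, had 61 UMIs, 31 of them in Nlrp3-/- 1, and Csf1, macrophage colony-stimulating factor, had a UMI in 32 members.

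Il1r1 was low in the members, while the interleukin-1 list as a whole lay near all genes. Il1r1, the receptor of interleukin-1, was at 18.7, 8.89 and 24.98 CPM in wild-type members and at 108, 29.9 and 35.3 CPM in Nlrp3-/- members, against 73.9 to 172 CPM in other mesenchymal barcodes, and members held less of it than the other barcodes in all 6 libraries, though in Nlrp3-/- 1 by little, at 108 against 113 CPM. It had a UMI in 19 of 81 members. The barcodes left out for Col2a1 held still less, 10.2 CPM, so a low level was not particular to the members. Nlrp3 itself had 6 UMIs in wild-type 2 and 1 in wild-type 3, in 3 members, and 0 in the other libraries, and other mesenchymal barcodes held it at 3.76 to 7.87 CPM in wild-type and at 0 in Nlrp3-/-. Of 21 genes of the interleukin-1 pathway and inflammasome 10 averaged 20 CPM, with a median of -0.07, and Il1a was at 0. Of 20 genes of the inflammatory response 15 averaged 20 CPM, with a median of -1.89, with Saa3, Cxcl1 and Il6 high in Nlrp3-/- 1 as given above. The 14 immediate-early and stress genes had a median of -0.03, and the 5 of 9 angiogenic signals at 20 CPM -0.30.

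Markers of other cell types differed widely between libraries. Osteocyte markers summed to 81.1, 951 and 49.95 CPM in wild-type and 500, 1631 and 106 CPM in Nlrp3-/-, where all 37 UMIs of Nlrp3-/- 1 were of Pdpn, podoplanin, which other mesenchymal barcodes held at 70.5 to 107 CPM. Chondrocyte genes summed to 2602, 107 and 3663 CPM and to 379, 963 and 830 CPM, tenocyte genes to 122 to 2123 CPM, fibroblast genes to 131 to 250 CPM with Pi16 and Dpp4 at 0, and pericyte and smooth muscle genes to 159 to 907 CPM with Myh11 at 0. Chondrocyte genes of wild-type 1 and 3 were above those of other mesenchymal barcodes, at 2268 and 1820 CPM. Synovial lining genes summed to 24.96, 44.4 and 641 CPM and to 1203, 679 and 4642 CPM, nearly all of it Prg4. Macrophage genes summed to 99.8 to 674 CPM, neutrophil genes to 141 to 1465 CPM with the highest sum in wild-type 3, and osteoclast genes to 135 to 960 CPM. Endothelial genes lay between 0 and 31.1 CPM with Kdr and Emcn at 0, erythroid genes between 0 and 17.7, B cell genes between 0 and 44.9, muscle genes between 0 and 6.24 with Acta1 and Ckm at 0, adipocyte genes between 0 and 225, and the T cell genes Cd3d, Cd3e and Cd3g were at 0. S100a8 had a UMI in 63 members, and 90 of its 259 UMIs lay in the only osteocalcin-rich member of wild-type 3, the deepest member with 27347 UMIs. The part of these markers in the results was not tested.

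Between genotypes, the share of barcodes chosen by the rule overlapped. Most of them, 57 of 81, were low in osteocalcin, so these shares are not shares of mature osteoblasts. Of kept barcodes, members made up 0.169%, 0.169% and 0.0958% in wild-type and 0.0702%, 0.207% and 0.0492% in Nlrp3-/-. The means were 0.145% ± 0.0422 in wild-type and 0.109% ± 0.0856 in Nlrp3-/- (SD, n = 3 libraries), with p = 0.6 by a two-sided exact permutation test. Of mesenchymal barcodes they made up 1.42%, 0.841% and 0.535% in wild-type and 0.254%, 1.05% and 0.195% in Nlrp3-/-, with means of 0.931% ± 0.448 and 0.499% ± 0.475 (SD, n = 3) and p = 0.3 by the same exact permutation test. With 3 libraries against 3 this test cannot go below 0.1. The limits of the rule are fixed UMI counts, and the shares were not matched for depth. Other mesenchymal barcodes had a median of 4296 UMIs in Nlrp3-/- 1, against 12839 to 16661 UMIs in the other libraries. Of barcodes with at least 5 UMIs of Bglap, Bglap2 and Ibsp, 44 of 56 had a regulator UMI in Nlrp3-/- 1. This was 23 of 28 in Nlrp3-/- 3 and 79 of 81 in wild-type 1. The 95% Wilson intervals, which cover counting error only, ran from 0.887% to 2.26% in wild-type 1 and from 0.0895% to 0.425% in Nlrp3-/- 3. Among kept barcodes, fewer such cells and fewer recovered ones cannot be told apart.

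The share of members with an osteocyte transcript was compared after each member was thinned to 2000 UMIs. Only wild-type 1, wild-type 2 and Nlrp3-/- 2 held at least 10 members, and in them the share was 23.5%, 28.6% and 28.6%. In the smaller libraries it was 0% in wild-type 3 and in Nlrp3-/- 1, each from 8 members, which allows up to 37.5% of members with such a UMI at this depth, and 16.7% in Nlrp3-/- 3 from 6. Without thinning, the shares were 23.5%, 47.6% and 12.5% in wild-type and 0%, 33.3% and 33.3% in Nlrp3-/-. With 2 libraries against 1 there are only 3 assignments, so the exact permutation test, which gave p = 1, could not reach the threshold, and over all 6 libraries, an analysis chosen after the data were seen, also p = 1. In neutrophil barcodes Dmp1 was found in 0% to 0.263% and Phex in 0% to 0.232%.

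Genes were compared between genotypes on UMIs summed per library with the quasi-likelihood test of edgeR. Over the 3 libraries with at least 10 members, where the lone Nlrp3-/- library is assumed to vary like the wild-type ones, 2 of 3897 genes tested (0.0513%) passed an adjusted p of 0.05, Xist and Prg4, both higher in Nlrp3-/-, and 328 (8.42%) had an unadjusted p under 0.05. Over all 6 libraries, added after the data were seen, 2 of 2034 genes (0.0983%) passed, Xist and Crip1, and 162 (7.96%) had an unadjusted p under 0.05. The median log2 fold change over all genes was -0.03 and 0.03. The count over the 3 larger libraries rested on the settings, as it was higher with RLE size factors, without the filter on low counts and with a mitochondrial limit of 5%. With a UMI minimum of 1000, Nlrp3-/- 1 held 13 members and joined the larger libraries, and the count was 0.

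Prg4, lubricin of the joint surface, had 3, 8 and 76 UMIs in wild-type members and 88, 130 and 262 in Nlrp3-/- members, or 18.7, 35.5 and 633 CPM and 1190, 649 and 4625 CPM. The Nlrp3-/- libraries lay above all wild-type ones, but Nlrp3-/- 2 and wild-type 3 were close. In Nlrp3-/- 2, 89.2% of its UMIs came from 1 barcode, in Nlrp3-/- 3, 99.6%, and in wild-type 3, 94.7%. The barcodes of Nlrp3-/- 3 and wild-type 3 were among the highest Scrublet scores. Its log2 fold change was 4.50 (SE 0.431, edgeR adjusted p = 0.00928) over the 3 larger libraries and 3.24 (SE 1.19, edgeR adjusted p = 0.550) over all 6. Other mesenchymal barcodes held it at 440 to 1549 CPM.

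Crip1, a small LIM-domain protein of the cytoplasm, was lower in Nlrp3-/- members. It stood at 2053, 2155 and 2256 CPM in the 3 wild-type libraries and at 460, 369 and 547 CPM in the 3 Nlrp3-/- libraries, from 329, 485 and 271 and from 34, 74 and 31 UMIs. The groups did not overlap, and 70 of 81 members held a UMI of it. Its log2 fold change was -2.26 (SE 0.267, edgeR adjusted p = 0.0135) over all 6 libraries and -2.50 (SE 0.394, edgeR adjusted p = 0.150) over the 3 larger ones. In the members low in osteocalcin alone it was -2.38 (edgeR adjusted p = 0.0135). The call was lost with the replicate number as a block (adjusted p = 0.0983) and when wild-type 1, wild-type 2 or any Nlrp3-/- library was left out (edgeR adjusted p from 0.0832 to 0.129), with log2 fold changes of -2.40 to -2.15, and was kept without wild-type 3 (edgeR adjusted p = 0.0370). Other mesenchymal barcodes held Crip1 at 2898, 2699 and 2315 CPM in wild-type and at 1840, 2102 and 1832 CPM in Nlrp3-/-. Whether the difference in members exceeds that in other mesenchymal barcodes was not tested.

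Several genes with low unadjusted p over all 6 libraries did not pass the threshold and were named after their values were seen. Mmp13 was at 1166 ± 886 CPM in wild-type and 8280 ± 3611 CPM in Nlrp3-/- members (SD, n = 3 libraries), without overlap, with a log2 fold change of 2.79 (SE 0.599, edgeR adjusted p = 0.334). A few barcodes carried much of it, as 96.5% of the Mmp13 UMIs of wild-type 3 and 93.1% of those of Nlrp3-/- 3 came from 1 barcode each. At least 10 UMIs of Mmp13 were found in 5 of 17, 6 of 21 and 1 of 8 wild-type members and in 4 of 8, 9 of 21 and 3 of 6 Nlrp3-/- members. Mmp13 of the other mesenchymal barcodes was at 30.7, 24.8 and 300 CPM and at 326, 274 and 195 CPM.

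Cebpb, a transcription factor of acute-phase and osteoblast genes, was at 74.9, 93.3 and 125 CPM in wild-type and 946, 274 and 388 CPM in Nlrp3-/- members (edgeR adjusted p = 0.272), whereas other mesenchymal barcodes held it at 361 to 430 CPM and at 297 to 391 CPM. Gas1, a membrane protein that binds hedgehog ligands, was at 93.6, 84.4 and 125 CPM and at 297, 279 and 300.1 CPM (edgeR adjusted p = 0.272). Gpx3, a secreted glutathione peroxidase, was at 1192, 1302 and 766 CPM and at 433, 269 and 371 CPM (edgeR adjusted p = 0.272). Postn was at 3026, 1568 and 3988 CPM and at 1284, 728 and 547 CPM (edgeR adjusted p = 0.435). Groups did not overlap for any of these 4, nor for 132 higher (6.49%) and 160 lower (7.87%) of the 2034 genes, so a lack of overlap was common.

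**Figure D5:**
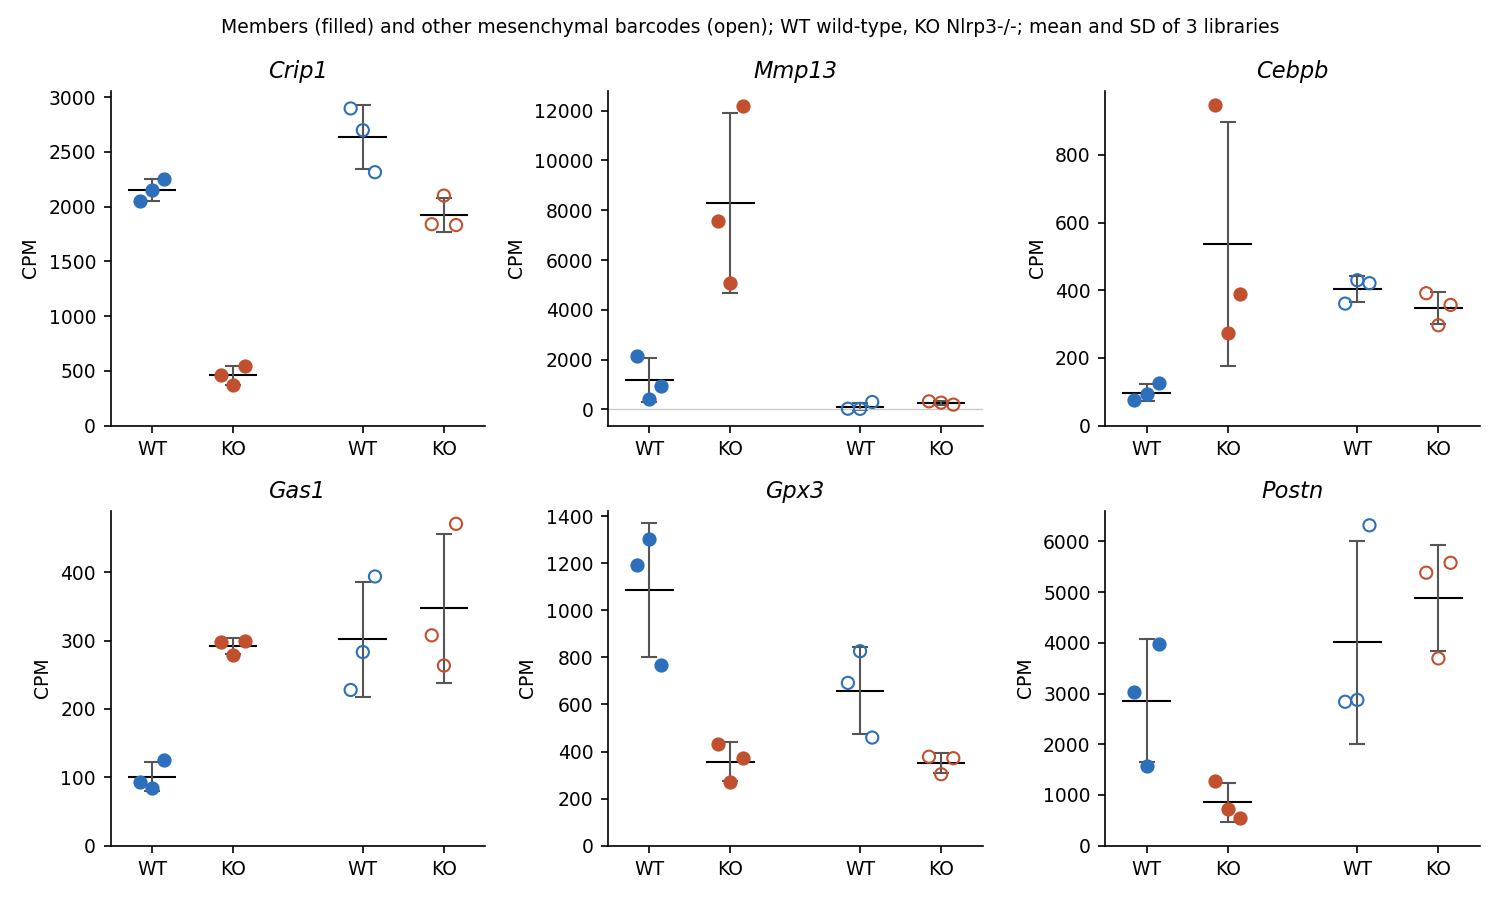
CPM (y) of 6 genes in members (filled) and other mesenchymal barcodes (open) of wild-type (WT, blue) and Nlrp3-/- (KO, orange) libraries, with mean and SD of 3 libraries. Crip1 of members is at 2053 to 2256 CPM in wild-type and 369 to 547 CPM in Nlrp3-/-, and Mmp13, Cebpb, Gas1, Gpx3 and Postn of members do not overlap between genotypes without passing the test.

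Of the listed bone, signalling and other-cell genes, none passed in the edgeR fit over all 6 libraries. Mmp13 passed in 6 of 24 settings, of which only DESeq2 used all 6 libraries (DESeq2 adjusted p = 0.000150). The other passing settings had Nlrp3-/- 2 as the lone Nlrp3-/- library. The edgeR fits over all 6 libraries, and those with 1 of them left out, gave adjusted p from 0.152 to 0.666. Of 117 list genes outside the rule that could be tested over all 6 libraries, 0 passed by edgeR, against 0.0983% of all genes, and of 181 tested over 3 libraries 1 passed, Prg4. Over all 6 libraries, 6 osteoblast transcription factors could be tested, with a median log2 fold change of 0.39, and Foxc1 did not overlap between groups, at 49.9, 53.3 and 16.7 CPM against 135, 130 and 300.1 CPM (edgeR adjusted p = 0.435). The 18 matrix genes had a median of -0.35 with 5 positive and 13 negative values, and Bgn and Postn did not overlap. Other listed genes whose groups did not overlap were Pcolce, Sec24d, Anxa2, Slc39a14, Mmp13, Dkk3, Bmpr2, Smad5, Tgfb1, Cdh11, Pdgfrb, Jund, Sec61b, Ssr4 and Prg4, against 6.49% higher and 7.87% lower among all genes tested. The 19 genes of collagen folding and crosslinking had a median of -0.02, 7 mineralization genes -0.19, 11 BMP and TGF-beta genes 0.16, 10 hormone and growth factor genes 0.51, 12 secretory genes 0.01 and 9 immediate-early and stress genes 0.22. Slc39a14, a zinc transporter, was at 99.8, 93.3 and 66.6 CPM and at 446, 180 and 318 CPM (edgeR adjusted p = 0.334). Few genes of the remaining lists could be tested, 4 of the Wnt pathway, 3 osteocyte genes, 3 of the marrow niche, 3 of the inflammatory response, 2 that act on osteoclasts, 2 angiogenic signals and 1 of the interleukin-1 pathway, and no hedgehog gene. Nlrp3 and Il1r1 were too low to be tested, at 0, 6 and 1 and 0, 0 and 0 UMIs and at 3, 2 and 3 and 8, 6 and 2 UMIs.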

How the data were processed

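Each of 6 libraries was read from its deposited 10x matrix of raw UMI counts for 32285 genes, which the authors made with Cell Ranger on mm10 (version 2.1.1 in the submitters' processing notes and 4 in the matrix headers). No author annotation of cells was used. The members and gene lists were chosen with earlier results of these data known. Groups follow the sample titles, with which the genotype labels of Nlrp3-/- 2 and 3 conflict. Counts of the members were summed per library and tested with edgeR 4.0.16 (TMM scaling, filterByExpr, quasi-likelihood F test, Benjamini-Hochberg adjustment, threshold 0.05) on libraries with at least 10 members, on a script checked on simulated counts. Fits over all 6 libraries were chosen after the data were seen. DESeq2 1.42.0 was an alternative. Log2 ratios to other mesenchymal barcodes used CPM plus 10. Shares were compared by exact permutation over libraries. Scrublet (scanpy 1.11.5) set its automatic threshold so that 1 and 0 barcodes were marked in Nlrp3-/- 1 and 2, so it had not worked there, and no barcode was removed. The highest scores, taken at 0.8% per 1000 barcodes, held 15 members, left out in an alternative. Thinning drew 2000 UMIs from each member. Gene positions came from GENCODE release 21 on GRCm38 (32158 of 32285 identifiers matched) and promoters from RefSeq. Genes named were those of the selection rule, Nlrp3 and Il1r1, those past the genotype threshold, up to 6 of each list by mean CPM, and the 20 genes with a mean of at least 50 CPM whose smallest log2 ratio to other mesenchymal barcodes was highest. All other genes named, such as the 8 lower genes, Lepr, Bmp4, Saa3, Crip1, Cebpb, Gas1 and Gpx3, and those of the osteocalcin split, were named after their values were seen. No count model was used on single cells, and intervals cover counting error only. Some genes are not reported here.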

Additional observations from a re-analysis of the deposited data

How the results depend on the processing

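The difference in the share of members, Nlrp3-/- minus wild-type, stayed negative in every alternative run, but 1 library moved its size. No run matched the libraries for depth. Among kept barcodes it was -0.0358 percentage points, and -0.0848 without Nlrp3-/- 2, -0.0601 without wild-type 3, -0.0236 without wild-type 1 or 2, -0.0165 without Nlrp3-/- 1 and -0.00599 without Nlrp3-/- 3. Among mesenchymal barcodes it was -0.433, and -0.189 without wild-type 1, -0.706 without Nlrp3-/- 2 and -0.281 without Nlrp3-/- 3. Counts of genes past the threshold moved. Over the 3 larger libraries the count of 2 became 38 (24 higher and 14 lower) with RLE size factors, 72 without the filter on low counts, 13 with members thinned, 0 with a UMI minimum of 1000 (229 at an unadjusted p under 0.05 by edgeR), 11 with one of 4000, 96 with a mitochondrial limit of 5%, 1 with at least 3 UMIs of Bglap, Bglap2 and Ibsp and 4 without the highest Scrublet scores. The cause was not tested. Over all 6 libraries the count was 6 with DESeq2, and 0 to 2 when 1 library was left out, with 0 without Nlrp3-/- 3 (170 at an unadjusted p under 0.05 by edgeR). The replicate block gave 1 call over all 6 libraries. Deviations of same-numbered libraries correlated at -0.17, 0.04 and -0.03 over 2034 genes, so the numbers were not taken as pairing. The block and leaving out 1 library could not be fitted over 3 libraries, which leave no residual degrees of freedom. The difference in the osteocyte share, Nlrp3-/- minus wild-type, was 2.52 percentage points over the 3 larger libraries. It became 4.09 with a UMI minimum of 4000, 9.36 with a mitochondrial limit of 5% and -5.44 with at least 10 UMIs of Bglap, Bglap2 and Ibsp. It was 13.5 without the highest Scrublet scores, -2.24 without thinning, 3.08 with Dmp1 alone, 0 without wild-type 1 and 5.04 without wild-type 2. With Nlrp3-/- 1 added it was -11.8 at a UMI minimum of 1000. With wild-type 3 and Nlrp3-/- 1 added it was -3.74 at 3 UMIs of Bglap, Bglap2 and Ibsp. Over all 6 libraries it was -2.29, and -5.66 without thinning. Prg4 passed in 10 of 23 settings, Crip1 in 11 of 24 and Mmp13 in 6 of 24. Prg4 passed only with Nlrp3-/- 2 as the lone Nlrp3-/- library, and so did Mmp13 except with DESeq2 over all 6 libraries. With 6 to 21 members a library, 1 barcode can set the level of a gene, and a gene that was not called may still differ, by more than a little, at this depth.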
